A study of Mus musculus with 50 samples.

Results

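M2 macrophages were compared with M0 macrophages across all genes, using 3 M2 and 3 M0 RNA-seq libraries out of the 50 samples of the series. The libraries were chosen by their labels, and no measured value entered the choice. The series follows mouse digits after amputation and includes 9 libraries of bone marrow-derived macrophages that define reference activation states. Both groups are bone marrow-derived macrophages from female C57BL/6 mice, grown from marrow cells with L929-conditioned medium as the source of M-CSF. M2 macrophages then had 24 h of IL-4 in basal medium. M0 macrophages, the control, were given basal medium alone. The study's methods state collection at 24 h, while the labels name M0 a baseline and give it no time. If M0 was collected before the 24 h, IL-4 and time in basal medium cannot be told apart. The 3 libraries of a group are not said to come from separate animals or cultures, so the p-values measure the spread between these libraries, which may be technical.

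IL-4 is the type 2 cytokine made by T helper cells, mast cells, basophils and eosinophils. In macrophages its receptor, built from the IL-4 receptor alpha chain and the common gamma chain, activates JAK kinases and the transcription factor STAT6. The state that follows, called alternative activation or M2, is known for arginase, for chitinase-like and resistin-like secreted proteins, and for roles in helminth defence, tissue repair and cell fusion.

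Library totals were 21517077 to 27904773 expected counts in M0, 23654863 to 25692792 in M2 and 15683424 to 27903334 in M1, the activated state used for comparison at the end. Mitochondrial genes took 2.84 to 3.25% of the counts in the M0 and M2 libraries. Of the genes that define macrophages, Csf1r, Cd68 and Adgre1 stayed expressed in both groups. Itgam, Cd14 and Lyz2, described below, were called lower in M2, and Fcgr1 was called higher. Csf1r, the receptor of M-CSF, was at 1561 normalized TPM in M0 and 1110 in M2 (authors' normalized TPM, means of 3 libraries), Cd68 was at 1819 and 1589, and Adgre1, which encodes F4/80, was at 895 and 591. In these bulk samples, fewer cells of a type and less RNA per cell cannot be told apart.

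Of 12976 genes tested, 1427 were called higher in M2 (11.0%) and 1469 were called lower (11.3%). A call needed a Benjamini-Hochberg adjusted p under 0.05 in edgeR's quasi-likelihood test and more than a doubling or halving of the group mean after 1 was added to each normalized count. The scaling of libraries holds the median log2 fold change over all genes tested near 0 (-0.0035). Of the called genes, 49.3% were higher, and 57.6% with limma on normalized TPM. Without the fold threshold, 4853 genes were higher and 4894 were lower. The rises reached further than the falls. Among called genes, 95 rose more than 16-fold and 37 fell more than 16-fold. A gene list below is described by how many of its tested members were called, to be read against 11.0% and 11.3%, and by its median log2 fold change.

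**Figure D1:**
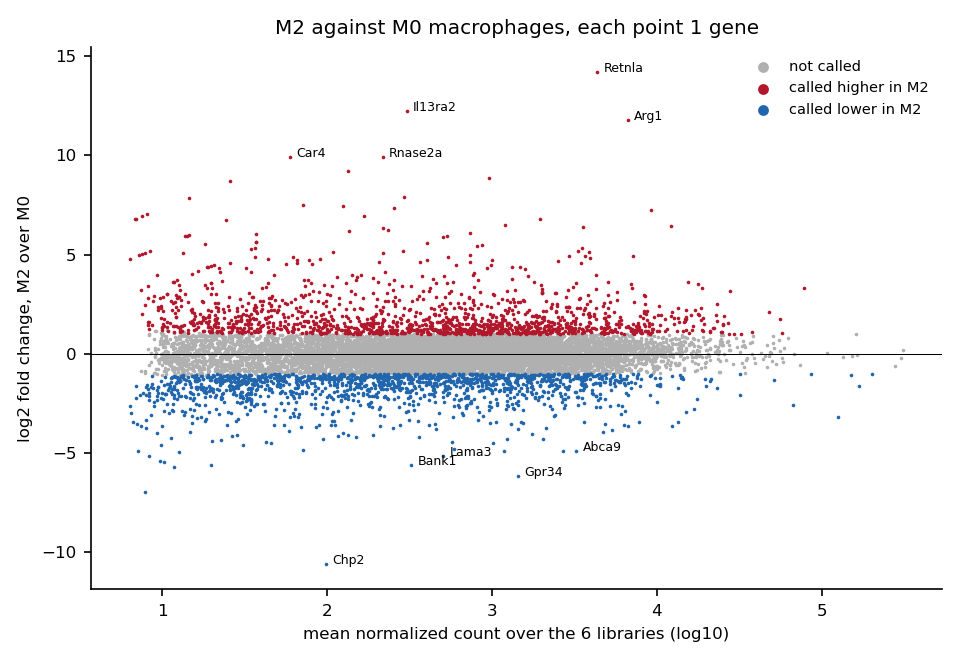
Each point is 1 of the 12976 tested genes, with the mean normalized count over the 6 libraries (log10) on the horizontal axis and the log2 fold change of M2 over M0 on the vertical axis. The 1427 red genes reach much further from 0 than the 1469 blue ones, except for Chp2, and the height of points whose M0 or M2 libraries are near 0 depends on the prior count of the fit.

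The genes with the largest rises included secreted and surface proteins known from the IL-4 response. Some of them, and other genes that rose, carry the palindrome TTC and GAA close to their start. Between TTC and GAA stand 4 bases of any kind, the spacing that STAT6 prefers. Of the genes shown, Retnla, Pdcd1lg2 and Tmem26 are among the 20 with the largest rises, and Ccl17, Itgax and Il1rn are not. The stretches below, on mouse GRCm38.p6 from RefSeq, are 60 bases each and are shown because these genes, chosen after their values were seen, rose and hold the motif. Capitals mark the motif letters, and positions count from the RefSeq start site on the gene's strand.
Retnla, chr16:48842439-48842498, plus strand, motif at -145: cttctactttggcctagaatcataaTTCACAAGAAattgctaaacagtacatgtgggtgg
Pdcd1lg2, chr19:29410812-29410871, plus strand, motif at -82: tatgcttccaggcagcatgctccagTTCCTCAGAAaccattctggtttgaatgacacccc
Tmem26, chr10:68723680-68723739, plus strand, motif at -41: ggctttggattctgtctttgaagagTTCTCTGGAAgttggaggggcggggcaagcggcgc
Ccl17, chr8:94810274-94810333, plus strand, motif at -154: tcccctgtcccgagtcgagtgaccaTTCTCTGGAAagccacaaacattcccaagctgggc
Itgax, chr7:128129398-128129457, plus strand, motif at -127: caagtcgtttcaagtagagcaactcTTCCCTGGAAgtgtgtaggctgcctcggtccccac
Il1rn, chr2:24345145-24345204, plus strand, motif at -121: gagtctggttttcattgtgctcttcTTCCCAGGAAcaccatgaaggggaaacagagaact
The motif was in 14.3% of the promoter windows of alternative activation genes (6 of 42 windows, each from 250 bases before to 50 after a start). The same palindrome with 3 bases between, the spacing of other STAT factors, was in 14.3% of these windows too, against 7.03% of those of all genes tested. Type I interferon-stimulated genes held the 4-base spacing in 20% of their windows and the 3-base spacing in 16.7%. The 4-base motif was in 17.6% of the windows of the 20 genes with the largest rises, 5.59% of those of all genes tested and 6.95% of all promoters of the table. Of the genes tested, 9958 had a window. Windows of genes called higher held it in 6.97% of cases and those of genes called lower in 5.77%. A match is a stretch of letters and not a measured binding site.

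Retnla, which encodes the resistin-like protein RELM-alpha, reached at most 1 expected count per M0 library, against 8030, 10016 and 8065 normalized counts in the M2 libraries. With 1 count over the M0 libraries against 25803 in M2, the ratio scaled to library size was 26413, with an exact 95% counting interval of 4740 to 1043290. Where such a ratio is given below its interval is of the same kind, and a gene at 0 in all libraries of a group is given as a bound against 3 counts per library. Arg1, the arginase that turns arginine into ornithine and urea, was at 5.20, 0 and 5.23 in M0 and at 12055, 14905 and 13044 in M2. Its log2 fold change was 11.80 ± 0.20 (SE, n = 3 per group, edgeR adjusted p = 1.65e-11). No M2 library came near an M0 library for either gene.

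Il13ra2, the decoy receptor for IL-13, was at 0 in all M0 libraries and at 648, 633 and 549 in M2, at least 188-fold higher. Pdcd1lg2, which encodes the PD-1 ligand PD-L2, went from 4.33, 2.16 and 5.23 to 1905, 1906 and 1914 (log2 fold change 8.87 ± 0.12). Flt1, the VEGF receptor 1, went from 81.4, 181 and 111 to 20147, 17597 and 17426 (7.24 ± 0.19). In each the groups were apart by far more than the spread within them. Tmem26, a membrane protein also known from beige fat cells, was at 78.0, 90.8 and 80.6 in M0 and 6281, 7442 and 7312 in M2, 84.6-fold higher. Among the other top risers, Nts, which encodes the peptide neurotensin, was at 266, 301 and 239 in M2 with 1 count over the M0 libraries (ratio 816, interval 146 to 32264). The carbonic anhydrase Car4, at 0 in all M0 libraries, was at least 36.7-fold higher. The activating receptor Tarm1 rose by 7.90 ± 0.22 and the lipase Lipn by 7.36 ± 0.25 on the log2 scale.

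Of 43 tested alternative activation genes, 34 rose and 5 fell, with a median log2 fold change of 2.89, or 2.65 with genes near 0 in M0 held at a 3-count floor. Slc7a2, the cationic amino acid transporter that feeds arginine to arginase, was at 269 to 295 in M0 and 23777 to 24234 in M2 (6.42 ± 0.06). Mgl2, the C-type lectin CD301b, rose from between 174 and 198 to between 5334 and 6273 (4.91 ± 0.08). Egr2, a zinc finger transcription factor, rose from between 176 and 208 to between 4782 and 4920 (4.66 ± 0.06). The chitinase-like gene Chil3 (Ym1) rose 3.06 ± 0.07 on the log2 scale, and its close relative Chil4 reached at most 1 expected count per M0 library against normalized counts of 16.7, 13.2 and 16.6 in M2, a ratio of 47.1 (95% counting interval 8.04 to 1900). Rnase2a, an eosinophil-associated ribonuclease, was at 408, 455 and 443 in M2 with 1 count over the M0 libraries (ratio 1319, interval 236 to 52156).

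Other members of the list rose as well. The transglutaminase Tgm2 rose by 2.21 ± 0.07, the macrophage elastase Mmp12 by 2.51 ± 0.11, Klf4 by 2.29 ± 0.08, Irf4 by 1.72 ± 0.07, the fatty acid receptor Cd36 by 1.63 ± 0.07 and the lipid sensor Pparg by 1.28 ± 0.06, all on the log2 scale. Il1rn, the IL-1 receptor antagonist, was at 1522, 1867 and 1565 in M0 and 7766, 6372 and 6057 in M2 (2.03 ± 0.10). Matk, a tyrosine kinase, rose by 3.11 ± 0.08, the coactivator Ppargc1b by 2.65 ± 0.14, the ribonuclease Ear2 by 2.22 ± 0.21 and the proton pump subunit Atp6v0d2 by 2.08 ± 0.08. Gatm, of creatine synthesis, rose by 1.16 ± 0.05. The growth factor Igf1 (0.95 ± 0.06) and fibronectin, Fn1 (0.43 ± 0.09), were not called. Ch25h, which makes 25-hydroxycholesterol, rose by 2.89 ± 0.17.

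Some genes often used as M2 markers went the other way. F13a1, coagulation factor XIII A chain, was at 8706, 7937 and 9876 in M0 and 512, 606 and 596 in M2, a fall by 3.95 ± 0.09 on the log2 scale (edgeR adjusted p = 1.03e-10). Cd163, the haemoglobin scavenger receptor, fell by 3.78 ± 0.11, and the lectin Cd209a (-2.86 ± 0.32), Clec10a, the lectin MGL1 (-1.58 ± 0.09), and the histone demethylase Kdm6b (-1.23 ± 0.06) fell too. Mrc1, the mannose receptor CD206, was not called. It was at 66825, 59688 and 60039 in M0 and 39791, 44754 and 44777 in M2, a log2 fold change of -0.53 ± 0.06. Il10 was at 64.9 to 78.0 in M0 and 55.7 to 105 in M2, and its groups overlapped.

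**Figure D2:**
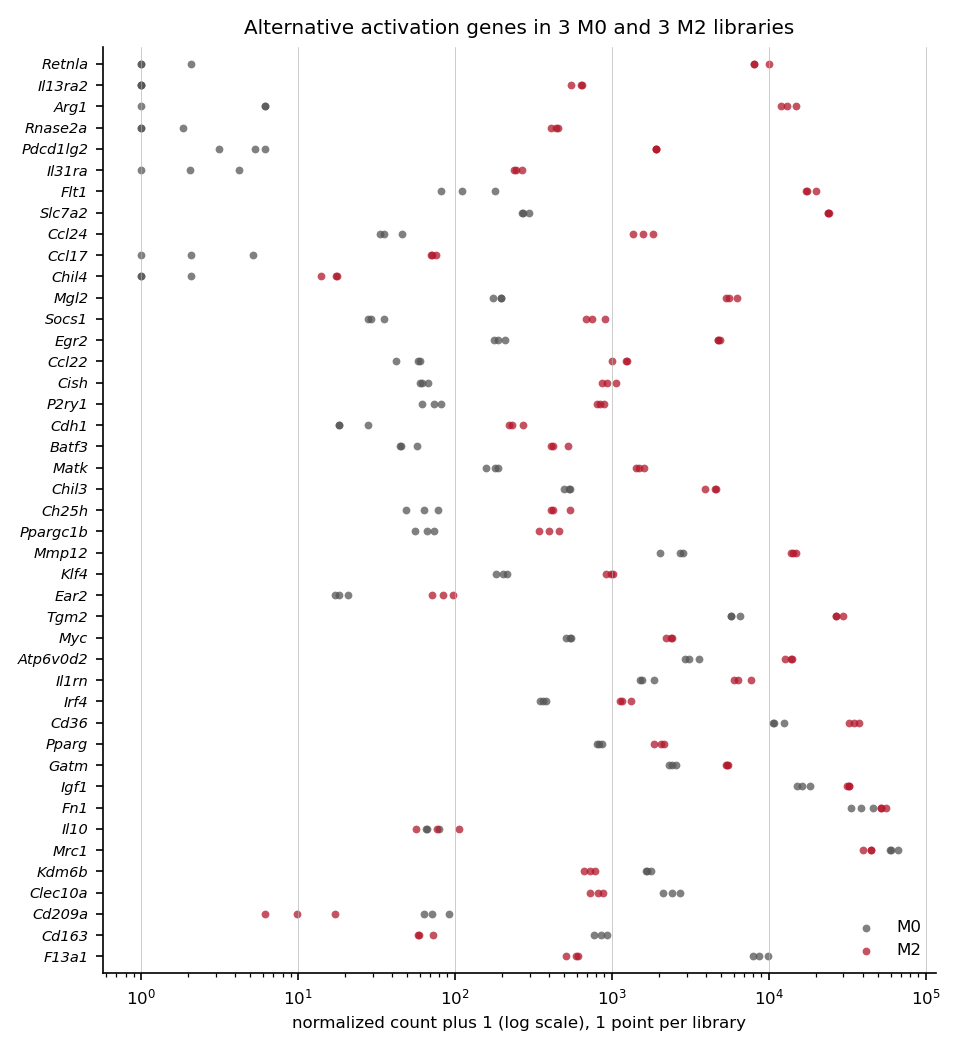
Normalized count plus 1 on a log axis for the 43 tested alternative activation genes, 1 point per library (grey, 3 M0 libraries, red, 3 M2 libraries). Genes from Retnla down to Gatm, 34 in all, were called higher in M2, and the 5 genes at the bottom, from Kdm6b to F13a1, were called lower.

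The receptor and its feedback arm moved unevenly. Of 20 IL-4 receptor and JAK-STAT genes, 7 rose and 3 fell. Il4ra itself was at 6083, 6173 and 6391 in M0 and 3174, 3375 and 3498 in M2, a log2 fold change of -0.89 ± 0.05 that did not reach 2-fold. Stat6 was at 5030 to 5413 and 4327 to 4426. Il2rg, the common gamma chain, rose by 2.04 ± 0.08 and Jak2 by 2.05 ± 0.05 on the log2 scale, whereas Jak3 fell by 1.37 ± 0.06. Of 8 SOCS genes, which encode cytokine feedback inhibitors, Socs1 (4.71 ± 0.15), Cish (3.95 ± 0.11) and Socs2 (2.89 ± 0.09) rose and none fell. Socs3 was at 399 to 459 in M0 and 492 to 536 in M2.

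Arginine handling rose beyond arginase. Of 23 tested genes of arginine and polyamine metabolism, 8 rose and 1 fell. Ass1, which rebuilds arginine from citrulline, was at 113, 143 and 119 in M0 and 2834, 2265 and 2522 in M2 (4.35 ± 0.11). Slc7a1, a second cationic amino acid transporter, rose by 1.96 ± 0.09 and the spermidine synthase Srm by 1.48 ± 0.06. Paox, which oxidizes acetylated polyamines, fell by 1.74 ± 0.06. Nos2, the inducible nitric oxide synthase that competes for arginine, also rose, from 15.6 to 38.9 in M0 to 321, 387 and 360 in M2 (3.81 ± 0.21). Its level in M2 was 6.15 normalized TPM, against 2721 in M1 macrophages, the series' other activated state.

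Interferon-stimulated genes rose together. Of 32 tested type I interferon-stimulated genes, which encode antiviral effectors, 30 rose and none fell, with a median log2 fold change of 2.20. The interferon-gamma GTPases and CXCR3 ligands rose in 14 of 18 cases (median 2.14) with no fall, and the Schlafen and p200 interferon-inducible families in 13 of 16 (median 1.63) with no fall. Isg15, a ubiquitin-like modifier, was at 346, 676 and 499 in M0 and 9619, 6981 and 7417 in M2 (3.99 ± 0.20, edgeR adjusted p = 1.66e-08). Ifit2, of an antiviral RNA-binding family, was at 4043, 7002 and 5674 in M0 and 60390, 43388 and 45468 in M2 (3.16 ± 0.19). Rsad2 (viperin) rose by 3.31 ± 0.17, the oligoadenylate synthetase-like gene Oasl1 by 4.25 ± 0.20, and Irf7, the factor that amplifies type I interferon, by 2.97 ± 0.20.

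Gbp2, a guanylate-binding GTPase, was at 2340, 2360 and 2260 in M0 and 35336, 24755 and 25810 in M2 (3.63 ± 0.12). The CXCR3 ligands Cxcl10 and Cxcl9 rose by 3.06 ± 0.28 and 2.27 ± 0.12 on the log2 scale. Slfn1 rose by 4.61 ± 0.18 and Ifi205 by 3.94 ± 0.20. Stat2 rose by 1.48 ± 0.10 and Nlrc5, the class I transactivator, by 1.63 ± 0.09. The interferon genes themselves were barely counted. Ifnb1 was at 0 to 0.0985 normalized TPM in M0 and 0 to 0.352 in M2, Ifng at 0 to 0.0651 and 0.0719 to 1.04, and neither passed the filter on low counts.

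In the type I list the first replicates stood at the ends of their groups. M0 replicate 1 was the lowest M0 library for 32 of 32 type I interferon-stimulated genes, and M2 replicate 1 was the highest M2 library for 32 of 32. The counts were 12 and 16 of 18 in the interferon-gamma list and 15 and 16 of 16 in the Schlafen and p200 families. Over all genes tested the shares were 32.4% and 35.1%. Without M0 replicate 1, 29 of the type I genes were still called higher, and without M2 replicate 1, 29 were. The part of these libraries in the rise beyond that was not tested.

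The interferon-stimulated response element, searched on both strands as GAAA, 2 bases of any kind and GAAA, was in 43.3% of the promoter windows of type I interferon-stimulated genes and in 76.9% of those of the interferon-gamma list. It was in 3.41% of the windows of all genes tested. This motif was added after the values were seen, and its matches can overlap one another, as do the 3 in Isg15. Windows of all genes called higher held it in 7.04% of cases, and those of genes called lower in 3.53%. The stretches below are shown for genes of these 2 lists that rose, with the element in capitals as read on the gene's strand.
Ifit1, chr19:34640760-34640819, plus strand, motif at -104: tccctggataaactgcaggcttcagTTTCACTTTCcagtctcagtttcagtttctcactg
Isg15, chr4:156200850-156200909, minus strand, motif at -66: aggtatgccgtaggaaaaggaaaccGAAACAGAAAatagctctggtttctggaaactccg
Rsad2, chr12:26456538-26456597, minus strand, motif at -120: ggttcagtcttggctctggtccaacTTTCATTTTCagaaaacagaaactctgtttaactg
Gbp2, chr3:142620579-142620638, plus strand, motif at -59: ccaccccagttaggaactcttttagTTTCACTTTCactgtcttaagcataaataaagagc
Cxcl10, chr5:92349068-92349127, minus strand, motif at -213: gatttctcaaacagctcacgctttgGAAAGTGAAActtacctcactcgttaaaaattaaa

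By the number of called genes, antigen presentation rose mainly on the class I side, while summed levels rose on both sides. The class I list summed to 8322 to 8758 normalized TPM in M0 and 15466 to 18185 in M2. The class II list summed to 3159 to 3467 in M0 and 7062 to 7507 in M2. Of 22 tested MHC class I and peptide loading genes, 16 rose and none fell, with a median log2 fold change of 1.6. H2-M2, a non-classical class I gene, was at 26.9, 19.5 and 31.4 in M0 and 2989, 1991 and 2187 in M2 (6.51 ± 0.21). The peptide transporter subunit Tap1 rose by 1.83 ± 0.10 and the immunoproteasome subunit Psmb8 by 1.73 ± 0.07. H2-K1 and B2m, the classical heavy chain and its light chain, were below the 2-fold threshold at log2 fold changes of 0.81 ± 0.05 and 0.79 ± 0.07. Of 13 MHC class II genes, 4 rose and 1 fell. Cd74, the invariant chain, was at 6213, 6822 and 7427 in M0 and 25068, 21777 and 22344 in M2 (1.76 ± 0.07). H2-Aa and H2-Ab1 were not called, with log2 fold changes of 0.34 ± 0.06 and 0.46 ± 0.07. The class II peptide editor H2-DMa rose by 1.29 ± 0.07, and H2-Ob fell by 2.66.

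Among 21 co-stimulatory and checkpoint ligands and receptors, 11 rose and 3 fell. Beside Pdcd1lg2, Cd274 (PD-L1) was at 1174, 1415 and 1332 in M0 and 14730, 11702 and 12311 in M2 (3.31 ± 0.10). Slamf8 rose by 5.33 ± 0.12, Cd40 by 2.96 ± 0.15, and Cd86 by 1.43 ± 0.08. The galectin Lgals3 rose from between 17892 and 18188 to between 77429 and 79009. Tnfsf4 (OX40 ligand) was higher by a ratio of 55.3 (interval 21.3 to 205). Vsir, which encodes the inhibitory ligand VISTA, was at 17377, 16254 and 17390 in M0 and 2904, 3204 and 3401 in M2, a fall by 2.42 ± 0.06. Icosl and Havcr2 fell as well.

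**Figure D3:**
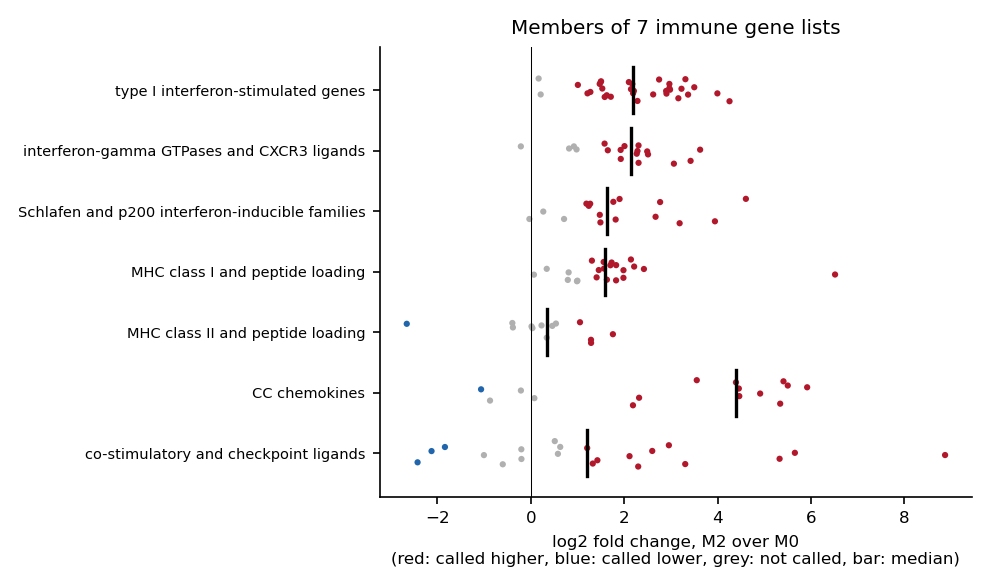
Log2 fold change of M2 over M0 for the tested members of 7 immune gene lists, 1 point per gene (red, called higher, blue, called lower, grey, not called), with a black bar at the list's median. The 3 interferon lists and MHC class I hold no blue point, and their medians lie between 1.6 and 2.20.

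Chemokines of the CC family rose in 11 of 15 tested cases, with a median log2 fold change of 4.39, or 3.55 with genes near 0 in M0 held at a 3-count floor. Ccl24 (eotaxin-2) was at 34.6, 45.4 and 32.4 in M0 and 1577, 1833 and 1358 in M2 (5.41 ± 0.15). Ccl7, a ligand of CCR2, rose from between 224 and 254 to between 6552 and 7434 (4.91 ± 0.07). Ccl8 rose by 5.50 ± 0.11, Ccl5 by 4.39 ± 0.18, Ccl2 by 3.55 ± 0.08, and Ccl22 and Ccl17, ligands of CCR4, by 4.45 ± 0.14 and 5.34 ± 0.44. Ccl17 stayed low, at 69.9 to 74.9 normalized counts in M2. Ccl11 (eotaxin-1) was higher by a ratio of 82.9 (interval 14.5 to 3315). Ccl6 was not called (-0.21 ± 0.06), and Ccl27a, the 1 member called lower, lost its call with DESeq2's size factors, in the DESeq2, 9-library and limma fits, and without each of 3 single libraries.

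Among 14 chemokine receptors, 3 rose and 5 fell. Cx3cr1, the fractalkine receptor, was at 950, 1083 and 1243 in M0 and 43.3, 44.6 and 64.4 in M2 (a fall by 4.43 ± 0.15). Cxcr3 (-4.28 ± 0.19), Cxcr4 (-2.57 ± 0.09) and Ccr2 (-1.10 ± 0.05) fell as well. Of 35 interleukin and haematopoietic cytokine receptors, 14 rose and 6 fell. Il31ra was higher by a ratio of 189 (interval 73.7 to 697) and Il27ra rose by 3.44, while Epor, the erythropoietin receptor, fell by 4.21 ± 0.14. The IL-6 receptor pair split. Il6st, the shared signalling chain gp130, rose by 1.85 ± 0.05, and Il6ra, the ligand-binding chain, fell by 1.98 ± 0.05. Il1rl1, which encodes the IL-33 receptor ST2, was at 107, 128 and 119 in M0 and 1557, 1520 and 1528 in M2 (3.71 ± 0.07).

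Cytokines of the classical inflammatory kind were low in both groups. Il1b was at 215 to 294 in M0 and 199 to 208 in M2 and was not called. Il6 was at 1.05 to 2.60 and 13.5 to 29.4, a ratio of 14.1 (interval 5.77 to 44.9). Il12b was at 17.3 to 18.2 in M0 and 2.95 to 11.4 in M2 (-1.61 ± 0.46). Tnf was called higher, at 265 to 345 in M0 and 544 to 807 in M2, and lost its call without M0 replicate 2 or without M2 replicate 1. Of 31 growth factor genes, 7 rose and 4 fell. Csf1, which encodes M-CSF, was at 3620, 4045 and 3714 in M0 and 11102, 10741 and 10125 in M2 (1.49 ± 0.06). Hbegf rose by 2.09 ± 0.13, and the bone morphogenetic protein gene Bmp2 fell by 1.82 ± 0.09.

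Genes of macrophage identity leaned down. Of 20 macrophage identity genes, 4 rose and 6 fell (median log2 fold change -0.59), and of 20 tissue macrophage and microglia-type genes, 2 rose and 7 fell (median -0.47). Lyz2, which encodes lysozyme, was at 272623, 233509 and 261389 in M0 and 85562, 80684 and 81929 in M2, a fall by 1.63 ± 0.06. Cd33, a sialic acid-binding inhibitory receptor, was at 5702, 5107 and 4976 in M0 and 184, 203 and 148 in M2 (log2 fold change -4.88 ± 0.10). Gpr34, a lysophosphatidylserine receptor of microglia, was at 2964, 2523 and 3012 in M0 and 37.4, 45.6 and 36.4 in M2 (log2 fold change -6.15 ± 0.11). P2ry12, an ADP receptor of microglia, Itgam (CD11b) and Cd14 fell, with log2 fold changes of -2.46 ± 0.11, -1.56 ± 0.07 and -1.79 ± 0.07. The 4 members that rose were Fcgr1 and the GM-CSF receptor chains Csf2ra, Csf2rb and Csf2rb2.

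Uptake receptors split. Of 26 scavenger and efferocytosis genes, 7 rose and 6 fell. Stab1, a scavenger receptor, was at 117676, 111006 and 115715 in M0 and 19346, 18914 and 19453 in M2 (-2.58 ± 0.05). Gas6, the bridging ligand of the TAM receptors, fell by 3.64 ± 0.07, whereas its receptor Axl rose by 1.17. Msr1 rose by 1.73 and Olr1 by 5.12. Of 9 Fc receptor genes, 1 rose and 6 fell (median -1.26). Fcgr2b, Fcgr3 and Fcgrt fell, with log2 fold changes of -1.27 ± 0.05, -1.26 ± 0.06 and -2.67 ± 0.05, and Fcgr1 rose by 1.18 ± 0.10. Iron handling genes moved both ways, with 3 of 19 higher, 3 lower and a median of 0.014. Genes of iron exit and entry were among those that changed. Slc40a1 (ferroportin, which exports iron) was at 27048, 22761 and 24428 in M0 and 2050, 2252 and 2620 in M2 (-3.42 ± 0.10), and Tfrc, the transferrin receptor, rose by 1.70 ± 0.07. Of 19 complement components and receptors, 5 rose and 4 fell, with a median of 0.0073. C3 rose by 3.53 ± 0.10 and factor B (Cfb) by 3.63 ± 0.19, and the anaphylatoxin receptor C5ar2, at -1.38, and Itgam were among those that fell.

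The other genes with the largest falls had varied roles. Chp2, a calcineurin-like calcium-binding protein, was at 182, 180 and 229 in M0 and at 0 in all M2 libraries, at least 63.1-fold lower. Bank1, a B cell adaptor, was at 619, 589 and 700 in M0 and 6.89, 16.2 and 15.6 in M2 (-5.62 ± 0.17). Abca9, a transporter of the ABC family, was at 6862, 5737 and 6321 in M0 and 193, 186 and 244 in M2 (-4.92 ± 0.10). Hpgd, which inactivates prostaglandins, was at 2630, 1790 and 2501 in M0 and 67.0, 100 and 66.5 in M2 (-4.89 ± 0.18). Sgsh, a lysosomal sulfatase (-4.03 ± 0.08), Il16 (-4.52 ± 0.09) and the laminin chain Lama3 (-5.14 ± 0.12) fell too.

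Genes of biosynthesis rose, and so did the transcription factor Myc, which is known to drive them. Myc was at 510, 553 and 545 in M0 and 2420, 2395 and 2206 in M2 (2.13 ± 0.06), and Mxi1, a MYC antagonist, fell by 1.79. Of 36 ribosome biogenesis and nucleolar genes, 27 rose and none fell, with a median log2 fold change of 1.32. With fold ignored, all 36 were higher at an edgeR adjusted p under 0.05, as were 4853 of the 12976 genes tested. Dkc1, the pseudouridine synthase of box H/ACA particles, was at 413, 459 and 468 in M0 and 1379, 1511 and 1449 in M2 (1.70 ± 0.06). Nop56, a box C/D core protein, rose by 1.54 ± 0.05 and Rrs1 by 1.67 ± 0.06. Of 20 aminoacyl-tRNA synthetases, 11 rose and none fell (median 1.04). The MYC E-box CACGTG, also added after the values were seen, was in 17.6% of the promoter windows of the ribosome biogenesis list (6 of 34) and 9.60% of those of all genes tested. Windows of all genes called higher held it in 10.9% of cases, and those of genes called lower in 8.08%. The part of Myc in these rises was not tested.

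The ribosome's own proteins changed less. Of 80 cytoplasmic ribosomal protein genes, 1 rose and none fell, with a median of 0.17, and of 78 mitochondrial ribosomal protein genes, 5 rose and none fell, with a median of 0.45. Of 28 genes of glutamine, serine and one-carbon metabolism, 16 rose and 1 fell (median 1.06). Il4i1, a secreted amino acid oxidase induced by IL-4, was at 81.4, 88.7 and 91.0 in M0 and 2036, 1804 and 1470 in M2 (4.35 ± 0.13). Mthfd2, a mitochondrial folate enzyme, rose by 2.61 ± 0.11, Psat1, a serine synthesis enzyme, by 1.87, Asns by 1.95 ± 0.10 and the cystine transporter Slc7a11 by 3.03 ± 0.11, while Glul, glutamine synthetase, fell by 1.97 ± 0.07. Of 42 proteasome subunits, 9 rose and none fell (median 0.72), the 4 largest rises being the interferon-inducible Psme2, Psmb10, Psmb8 and Psme1.

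Cell cycle genes leaned down. Of 37 cell cycle and mitosis genes, 3 rose and 7 fell (median -0.54). Cenpa, the centromeric histone, was at 2900, 2602 and 2772 in M0 and 234, 270 and 260 in M2 (-3.44 ± 0.07), and Ccnb2 (-1.71 ± 0.12) and Mki67 (-1.03 ± 0.09) fell. The G1 cyclins Ccnd1 and Ccnd2 rose, Ccnd1 by 1.46 ± 0.09. Of 39 DNA replication genes, 3 rose and none fell (median 0.30), led by Pcna at 1.67 ± 0.05. Among CDK inhibitors, Cdkn1a (p21) rose by 1.40 and Cdkn1b (p27) fell by 1.93.

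**Figure D4:**
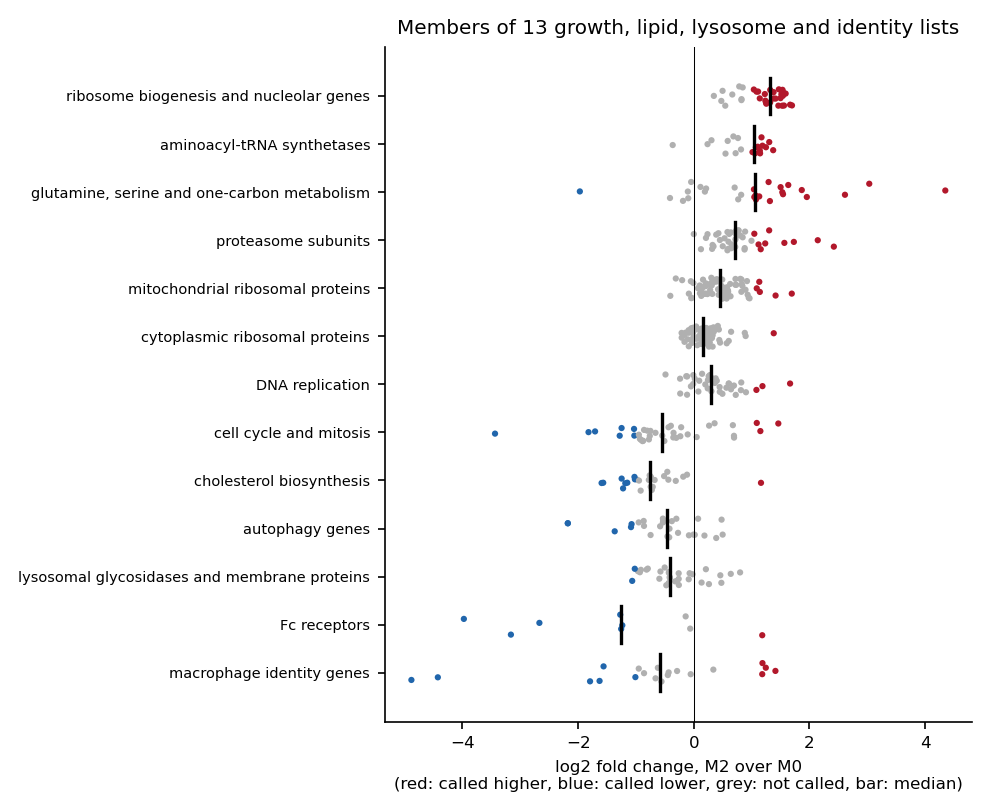
Log2 fold change of M2 over M0 for the tested members of 13 lists, 1 point per gene in the same colours, with a black bar at the list's median. The medians run from 1.32 for ribosome biogenesis to -1.26 for Fc receptors.

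Cholesterol synthesis went down together, by small steps. Of 25 genes, 8 fell and 1 rose (median -0.76). With fold ignored, 22 were lower at an edgeR adjusted p under 0.05, as were 4894 of the 12976 genes tested. Insig1, a sterol-regulated brake of the pathway, was at 5421, 5105 and 5275 in M0 and 1810, 1809 and 1615 in M2 (-1.59 ± 0.06). Idi1 fell by 1.25 ± 0.06. Of 25 cholesterol efflux and lipoprotein genes, 4 rose and 5 fell (median -0.45), and their summed level was 23630 to 26728 normalized TPM in M0 and 13960 to 14766 in M2. Of 33 fatty acid uptake and oxidation genes, 4 rose and 3 fell, shares near those over all genes. Lpl, lipoprotein lipase, was at 14667, 12948 and 14797 in M0 and 140440, 139246 and 144093 in M2 (3.32 ± 0.06). Abcg1, a sterol exporter, rose by 3.61 ± 0.09 and Nr1h3 (LXR-alpha) by 2.99 ± 0.11, and Abca1 was not called (-0.71 ± 0.04). In eicosanoid metabolism, Ptgs2 (COX-2) rose by 3.38 ± 0.12, and Hpgds (-2.62 ± 0.06) and Alox5ap (-2.24 ± 0.06) fell.

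Autophagy genes leaned down. Of 27 autophagy genes, none rose and 5 fell (median -0.45). The initiating kinases Ulk1 and Ulk2 fell, with log2 fold changes of -2.18 ± 0.06 and -2.18 ± 0.05. Of 31 lysosomal glycosidases and membrane proteins, 2 fell and none rose (median -0.41), so that the 6.45% that fell was under the share over all genes, and limma called no fall. Of 21 cathepsins and lysosomal proteases, 5 rose and 4 fell. Ctsk rose by 1.63 ± 0.11 and Ctsf fell by 1.38. Cst7 (cystatin F), which is counted in this list but encodes an inhibitor of such proteases, rose by 4.86 ± 0.13. Energy genes changed modestly. Of 38 complex I subunits, 2 rose (median 0.43), and of 18 ATP synthase subunits, 3 rose (median 0.50), with no fall in either. Of 28 glycolysis genes, 6 rose and 2 fell (median 0.46), led by the lysosomal sugar transporter Slc2a6 at 3.60 ± 0.16. Acod1, which makes itaconate from a citric acid cycle intermediate, was at 197, 178 and 160 in M0 and 8451, 5659 and 5466 in M2 (5.19 ± 0.18).

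Genes of cell fusion, adhesion and the extracellular space rose in part. Of 21 cadherin, catenin and cell fusion genes, 7 rose and none fell. Ocstamp was at 18.2, 32.4 and 14.6 in M0 and 1446, 1542 and 1350 in M2 (6.07 ± 0.15), Dcstamp rose by 5.89 ± 0.16, and E-cadherin (Cdh1) by 3.55 ± 0.18. These membrane proteins are needed for multinucleated cells. Of 10 tested osteoclast markers, 6 rose, Acp5 and Ctsk among them, and Nfatc1, the osteoclast master regulator, fell by 1.37 ± 0.05. Itgax (CD11c) was at 456, 439 and 459 in M0 and 13895, 14072 and 13598 in M2 (4.94 ± 0.05), while Itga6 fell by 2.60 ± 0.06.

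Of 26 matricellular and coagulation-linked genes, 11 rose and 1 fell. F10, coagulation factor X, was at 32.9, 35.7 and 35.6 in M0 and 4171, 3908 and 3610 in M2 (6.81 ± 0.09), and F7 rose by 3.85 ± 0.19. Plau (urokinase) rose by 1.91 ± 0.06 and its inhibitor Serpinb2 by 2.75 ± 0.09. Of 20 matrix metalloproteinases and inhibitors, 7 rose and 3 fell. Mmp13 rose by 2.23 ± 0.10, Timp1 rose from between 1004 and 1215 to between 4793 and 5055, and Mmp27 fell by 3.43 ± 0.09. Of 41 collagen and laminin genes, 8 rose and 2 fell, led by Col6a5 (6.33 ± 0.31). Stromal transcripts were counted in every library. The summed level of 12 fibroblast and stromal markers was 939 to 1411 normalized TPM in M0 and 1492 to 1656 in M2, 2 of 11 tested rose (Dcn and Pdgfra), and their part in the matrix genes was not tested.

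Purinergic receptors and ectonucleotidases, a list that also holds Gpr34, leaned down, with 5 of 26 higher and 10 lower. P2ry1 rose by 3.57 ± 0.10 and the adenosine receptor Adora2b by 3.70 ± 0.12, and P2ry12, P2ry13 and Gpr34 fell. Among transcription factors, Batf3 rose by 3.23 ± 0.14, Atf3 by 2.55 ± 0.05, Bhlhe40 by 3.09 ± 0.06 and the vitamin D receptor Vdr by 2.78 ± 0.08. Maf was at 37325, 33332 and 35758 in M0 and 11137, 9945 and 10910 in M2 (-1.73 ± 0.06), and Spic, a factor of red pulp macrophages, fell by 2.26 ± 0.10. Of 16 clock genes, 2 rose and 5 fell, with Dbp at -2.64 ± 0.08 and Per3 at -2.57 ± 0.11. Of 37 histone demethylases, deacetylases and related enzymes, 1 rose and 8 fell (median -0.51). In the TGF-beta and SMAD list, 1 of 29 genes rose and 2 fell, both under the shares over all genes, with a median of 0.20. The receptor Tgfbr2 and Smad3 fell, by log2 fold changes of -1.42 ± 0.05 and -1.30 ± 0.07.

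Markers of other blood cells gave mixed values. Of 7 tested B cell markers, 4 fell and none rose, and their summed level over 11 genes was 31.9 to 35.0 normalized TPM in M0 and 9.99 to 10.9 in M2. Of 11 neutrophil markers, 2 fell and none rose, and S100a8 was at a mean of 472 in M0 and 525 in M2. Of 6 tested T and NK cell markers, 1 rose (Il7r) and 2 fell, and the summed level of the list was 69.6 to 70.3 normalized TPM in M0 and 75.9 to 78.6 in M2. Cd4, which macrophages can carry, fell by 2.63 ± 0.06, and Cd3e was at 11.9 to 13.6 in M0 and 6.24 or fewer in M2. Of 12 dendritic cell markers, 4 rose (Itgax, Batf3, Zbtb46 and Ccr7) and 6 fell (Siglech, Kmo, Cd209a, H2-Ob, Dpp4 and Flt3). With limma on normalized TPM, Zbtb46 (0.88), Ccr7 (0.77) and Flt3 (-0.93) were not called.

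M1 macrophages, activated with LPS and IFN-gamma for 24 h, give a scale for these changes. M2 was tested against the 3 M1 libraries directly, and of 12934 genes, 48.0% were called, 27.9% higher in M2 and 20.1% lower. Of 42 tested alternative activation genes, 31 were higher in M2 than in M1 and 5 lower. Retnla was at 0 normalized TPM in M1 and 1405 in M2, and Flt1 at 1.25 and 198. Arg1 was not called between them, at 410 normalized TPM in M1 and 707 in M2, nor was Slc7a2 at 276 and 281. Type I interferon-stimulated genes were mostly lower in M2 than in M1. Of 32 type I interferon-stimulated genes, none was higher in M2 and 29 were lower. Ifit2 was at 101 normalized TPM in M0, 946 in M2 and 6244 in M1, and Acod1 at 4.82, 184 and 6186. Ribosome biogenesis genes were higher in M2 than in M1 in 35 of 36 cases, and cholesterol biosynthesis genes in 18 of 25. The M1 libraries stood apart in composition. Mitochondrial genes took 0.861 to 0.999% of their counts against 2.84 to 3.11% in M2, ribosomal protein genes took 0.433 to 0.482% against 2.67 to 2.87%, and 75 of 80 ribosomal protein genes were higher in M2 than in M1. The part of this composition in the M1 comparison was not tested. M0 values stand beside these only as levels, because both comparisons share the M2 libraries.

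**Figure D5:**
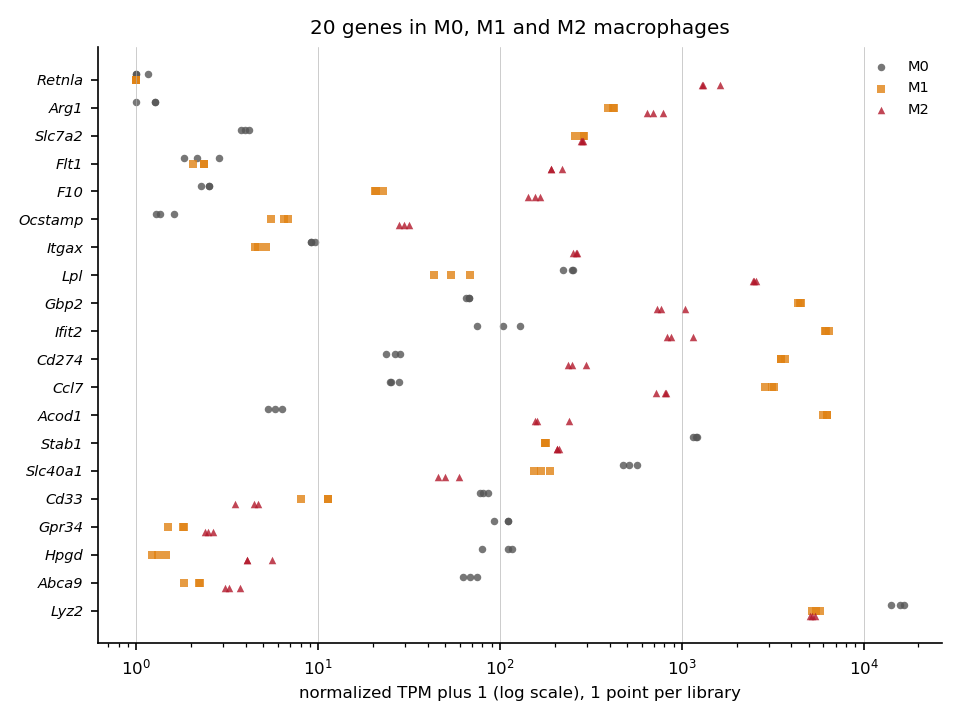
Authors' normalized TPM plus 1 on a log axis for 20 genes named above, chosen after their values were seen, 1 point per library (grey circles, M0, orange squares, M1, red triangles, M2). The interferon-stimulated genes Gbp2 and Ifit2 rise from M0 to M2 and lie higher still in M1. Retnla and Flt1 are high in M2 alone of the 3 states, and Slc7a2 is high in both M1 and M2.

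Some named genes have close relatives or overlap others, which limits how their reads are split. This holds for the Gbp, Ifit, Oas, Schlafen and p200 families, for Chil3 and Chil4, for Csf2rb and Csf2rb2 and for the class I genes. Of the 2035 genes in the lists or among the largest rises and falls, 672 have exons that overlap those of another gene on either strand. For 351 of them a coding gene is overlapped. Among named genes, exons of Slc7a2, Stat6, F13a1, Tgm2, Ch25h, Il16, Lama3, Cx3cr1, Sgsh and Paox overlap a gene on the other strand. Whether the counting used strand is not given in the sources used here.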

How the data were processed

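The authors sequenced the libraries single-end, mapped reads to mouse GRCm38 with Bowtie and deposited an expected count per gene from RSEM 1.2.3, which is not normalized. A second table holds the signal they deposited as normalized TPM, used here for levels of M1 and of single genes. Both tables list 21954 genes, and 0 columns were without a sample. The range of library totals in each group is given in the report. A count of 0 allows up to 3 counts, and this floor, like the 95% Poisson intervals of ratios against 1 to 5 summed counts, covers counting error only.

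Expected counts were rounded. M2 was tested against M0 and against M1 with edgeR 4.0.16 in R 4.3.3 (filterByExpr, TMM, glmQLFit, glmQLFTest) on the libraries of the 2 groups, with calls at a Benjamini-Hochberg adjusted p under 0.05 and over 2-fold of the mean normalized count plus 1. The study used EBSeq, which is not installed here. The test was checked on simulated counts. Alternatives were edgeR with DESeq2 size factors, no filter, DESeq2 1.42.0, all 9 macrophage libraries in 1 fit, no fold threshold, a replicate block, leaving out each library, and limma 3.58.1 on log2 of normalized TPM plus 1 (mean of at least 1). Pairing of equal replicate numbers is taken up with the limits.

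Genes were grouped in 97 lists holding 2017 tested genes. The text names up to 6 called members per direction of a list, defining members that were not called, every tested alternative activation gene, and genes among the 20 largest rises and falls at a mean normalized count of at least 100 with separate groups. The members and lists were chosen with earlier results of these data known. Gene models were GENCODE vM21, and promoter sequences came from RefSeq. The digit samples were not analysed here. Some genes are not reported here.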

Additional observations from a re-analysis of the deposited data

How the results depend on the processing

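Counts of called genes moved little under most settings, and more with limma on normalized TPM or without the fold threshold. Against M0, genes called higher in M2 numbered 1120 to 1574 and genes called lower 1435 to 1678 under the other scaling, filter and test settings, except for 823 lower with limma on normalized TPM. Without the fold threshold the counts were 4853 and 4894. Leaving out 1 library gave 1384 to 1575 higher and 1437 to 1542 lower. Against M1, the counts were 3475 to 4055 higher and 2600 to 2999 lower under the other scaling, filter, DESeq2, 9-library and block settings, with 3592 to 3705 and 2618 to 2744 when 1 library was left out. In fits chosen after seeing the data, limma on normalized TPM gave 2563 higher and 2270 lower, and no fold threshold gave 5934 and 5425. With the replicate block, 1426 genes were higher and 1466 lower than M0, and 3608 and 2600 were higher and lower than M1. The deviations of libraries with equal numbers correlated at -0.049, -0.095 and -0.068. Libraries with unequal numbers correlated positively in some cases and negatively in others. With 3 libraries per group, these values cannot decide whether equal numbers share an animal or culture. The numbers may be names only. None of the genes followed below lost a call with the block.

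Of 598 genes followed through 7125 alternative values, 509 kept every call, no direction reversed, and 160 values lost the call, 60 of them with limma on normalized TPM. Mpeg1, Apoe, Vegfa, Pgk1 and Tnf were among those near the 2-fold threshold. The cholesterol list had 5 falls in place of 8 with limma, the cell cycle list 4 in place of 7, and the lysosomal list 0 in place of 2. The cause was not tested. Depth limits genes near the floor, where a bound or a counting interval is given. The 3 libraries per group, of unstated independence, limit every p-value.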

Other observations

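Ion channels and small signalling families held some of the clearest single-gene changes. Kcnn4, the calcium-activated potassium channel KCa3.1, was at 323, 305 and 347 normalized counts in M0 and 3752, 3689 and 3452 in M2 (log2 fold change 3.48 ± 0.06, edgeR adjusted p = 2.11e-11). Clic4 rose by 2.53 ± 0.06, and Kcnd3 was higher by a ratio of 216 (exact 95% counting interval 59.6 to 1794). Of 48 tested potassium and other ion channel genes, 10 rose and 9 fell, against 11.0% and 11.3% of all genes. Among BCL-2 family and caspase genes, 6 of 29 rose and 3 fell. Bcl2a1a, a survival gene of a duplicated family, was at 13.9, 11.9 and 20.9 in M0 and 658, 530 and 494 in M2 (5.17 ± 0.19), and Bmf, a pro-apoptotic BH3-only gene, was at 961, 1035 and 1174 in M0 and 88.6, 113 and 140 in M2 (-3.21 ± 0.13).

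Antioxidant genes leaned up. Of 28 antioxidant and NRF2 target genes, 10 rose and 3 fell (median log2 fold change 0.51). The 10.7% that fell was near the share over all genes. Prdx1, a thiol peroxidase, was at 14176, 13055 and 14079 in M0 and 41864, 39030 and 39475 in M2 (1.54 ± 0.05), while Gpx3, a glutathione peroxidase, was at 5872, 5156 and 5743 in M0 and 1692, 1397 and 1669 in M2 (-1.82 ± 0.08). Tlr5, the flagellin receptor, was at 176 to 218 normalized counts in M0 and 13.5 to 20.3 in M2 (-3.61 ± 0.19).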
